A study of Homo sapiens with 6 samples.

Results

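The genes described here are 41 human genes of the G2 phase and of mitosis, the stretch of the cell cycle in which a cell that has copied its DNA condenses its chromosomes, pulls them apart on a spindle and divides. They were taken by symbol from the deposited count table of 3 gastric cancer cell lines, and all 41 were among its 29744 symbols and among the 14958 tested after genes with low counts were removed. MKN45 is an established human gastric tumour line and is labelled sensitive. HER2R, titled MKN-HER2 and with MKN45-HER2 as its cell line label, is labelled resistant to a HER2-TCB. CEAR, titled MKN-CEAR and with MKN45-CEAR as its cell line label, is labelled resistant to a CEACAM5-TCB. A TCB is a T cell bispecific antibody, which binds a tumour antigen with one arm and T cells with another. The design text calls both resistant lines derivatives of MKN45, without saying whether each is 1 clone. All 3 lines grew in the same serum-containing medium, the labels list no treatment, and no T cells are named in the samples. Each line has 2 total RNA sequencing libraries, numbered 1 and 2 in the labels, which makes 6. What the number stands for is not in the labels, and neither is whether both libraries of a line were grown separately. The p-values therefore reflect the scatter of these particular libraries, part or all of which may be technical.

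Entry into mitosis is driven by the kinase CDK1 bound to a B-type or A-type cyclin, and the CDC25 phosphatases switch this complex on by removing inhibitory phosphates. Polo-like and Aurora kinases then build the spindle, kinetochore proteins attach chromosomes to it, and the anaphase promoting complex, a ubiquitin ligase, destroys cyclins and securin so that chromosomes separate. Most of these genes are transcribed in a burst late in the cell cycle. The promoters of many carry a CCAAT box, bound by the factor NF-Y, and a cell cycle genes homology region (CHR), through which the MuvB complexes silence them in resting cells and, with B-MYB and FOXM1, switch them on in dividing ones.

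The promoters of the 41 genes are shown first, and whether their motifs relate to the levels given below was not tested. RefSeq promoters of GRCh38.p14, 300 bases long with 250 before and 50 after the transcription start, matched 36 of the 41 genes at 46 starts. AURKA, UBE2C, TTK, TPX2 and BIRC5 had no matching entry. Both strands were searched for the CHR letters TTTGAA and TTTAAA, for CCAAT and for the E2F letters TTCCCGCC. A CHR match was present in 32 of the 36 genes and in 78.3% of their starts, against 24% of all 35116 promoters in the table and 17% of the promoters of tested genes. CCAAT was present in 31 of the 36 and in 78.3% of starts, against 34.6% of all promoters, and 2 or more copies stood in 45.7% of starts against 10.8%. CHR and CCAAT occurred together in 63% of starts and in 9.27% of all promoters. The E2F letters were found in 2 of the 36 genes, at 4.35% of starts, between the 3.16% of all promoters and the 4.65% of promoters of tested genes. These are counts of letters in a fixed window, and they do not show that a factor was bound.

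The 200 bases before the start of 8 of these genes follow, chosen among those with values in every library below and a CHR match upstream. They are the switch kinase and its cyclin, a mitotic kinase, 2 chromosome proteins, and CENPF, CENPE and PIF1, which had the smallest p-values between the library numbers. Each reads 5′ to 3′ on the strand of its gene and ends at the base before the RefSeq start. Capitals mark CHR and CCAAT matches on either strand, so that ATTGG is CCAAT and TTCAAA is TTTGAA read from the other strand. Where a gene had several starts, the one with the most matches is shown. In MKI67 a CHR and a CCAAT match overlap, and in CENPE 2 CHR matches adjoin.
CDK1: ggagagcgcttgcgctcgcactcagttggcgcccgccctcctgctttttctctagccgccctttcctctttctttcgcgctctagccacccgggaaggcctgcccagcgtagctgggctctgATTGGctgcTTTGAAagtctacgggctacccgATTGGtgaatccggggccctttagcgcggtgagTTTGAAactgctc
CCNB1: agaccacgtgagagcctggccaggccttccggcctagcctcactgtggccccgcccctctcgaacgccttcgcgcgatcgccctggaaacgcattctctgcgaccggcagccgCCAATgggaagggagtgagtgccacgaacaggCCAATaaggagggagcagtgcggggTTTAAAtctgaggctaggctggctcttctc
PLK1: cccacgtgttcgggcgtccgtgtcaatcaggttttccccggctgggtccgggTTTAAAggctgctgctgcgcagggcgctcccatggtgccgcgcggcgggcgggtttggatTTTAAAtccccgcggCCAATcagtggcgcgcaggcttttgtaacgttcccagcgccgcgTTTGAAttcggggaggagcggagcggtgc
TOP2A: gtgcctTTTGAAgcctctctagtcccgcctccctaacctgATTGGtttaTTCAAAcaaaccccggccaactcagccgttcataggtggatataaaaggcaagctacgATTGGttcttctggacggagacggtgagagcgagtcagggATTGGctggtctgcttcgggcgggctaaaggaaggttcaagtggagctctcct
MKI67: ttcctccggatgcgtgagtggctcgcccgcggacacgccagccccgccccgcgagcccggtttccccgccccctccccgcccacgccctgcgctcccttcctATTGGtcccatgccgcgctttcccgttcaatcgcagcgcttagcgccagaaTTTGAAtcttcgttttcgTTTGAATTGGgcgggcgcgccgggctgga
CENPF: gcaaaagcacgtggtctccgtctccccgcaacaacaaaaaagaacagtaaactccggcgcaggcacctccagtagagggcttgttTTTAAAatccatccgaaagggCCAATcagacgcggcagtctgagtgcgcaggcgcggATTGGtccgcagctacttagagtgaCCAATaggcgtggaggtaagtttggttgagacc
CENPE: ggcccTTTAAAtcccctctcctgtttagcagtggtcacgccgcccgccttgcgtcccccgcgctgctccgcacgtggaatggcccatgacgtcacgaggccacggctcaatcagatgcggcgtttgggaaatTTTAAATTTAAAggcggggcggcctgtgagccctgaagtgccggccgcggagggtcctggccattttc
PIF1: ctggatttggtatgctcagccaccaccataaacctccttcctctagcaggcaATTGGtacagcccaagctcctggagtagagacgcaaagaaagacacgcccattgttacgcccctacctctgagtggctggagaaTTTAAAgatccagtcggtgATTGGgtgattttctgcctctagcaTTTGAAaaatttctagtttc
In GRCh38.p14 these lie at chr10:60778278-60778477 (plus strand), chr5:69166950-69167149 (plus strand), chr16:23678689-23678888 (plus strand), chr17:40417897-40418096 (minus strand), chr10:128126424-128126623 (minus strand), chr1:214602995-214603194 (plus strand), chr4:103198344-103198543 (minus strand) and chr15:64825648-64825847 (minus strand). For some of them the GENCODE 29 gene begins further upstream than the RefSeq start. CDK1, CCNB1, PLK1, MKI67, CENPF and PIF1 show at least 1 CHR and 1 CCAAT match, TOP2A shows 3 CCAAT matches beside 2 of CHR, and CENPE shows 3 of CHR and none of CCAAT.

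The smallest library held 39657353 counts and the largest 57964246. Levels below are in CPM, counts scaled to a common library total, and a single count was worth 0.0177 to 0.0255 CPM. The ribosomal RNA precursor RNA45S5 took 8.88% to 10.7% of counts. Of 11 epithelial and gastric markers, 8 to 10 were at 1 CPM or more in each library, summing to 8535 to 15728 CPM. Of 13 T, NK and B cell markers none reached 1 CPM in any library, they summed to 0.153 to 0.478 CPM, and CD3D, CD2, NKG7, GZMB and MS4A1 were at 0 counts in all 6. Of 6 myeloid markers 2 were at 1 CPM or more, LYZ and CD68, with CSF1R and FCGR3A at 0 in all 6. LYZ stood at 362 to 400 CPM in HER2R and at 827 to 1192 CPM in MKN45 and CEAR, and CD68 at 2.65 to 15 CPM. Of 9 fibroblast and endothelial markers at most 1 was at 1 CPM or more, with COL3A1, DCN and CDH5 at 0. Both libraries of each line held counts of their own, with chi-square values of 62.8 to 133 per degree of freedom between them.

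Nearly all of the 41 genes were lower in the number 2 libraries than in the number 1 libraries, in MKN45 and in both resistant lines. The summed level of the 41 was 6530 CPM in number 1 and 3323 CPM in number 2 of MKN45. In HER2R it was 6761 CPM and 4185 CPM, and in CEAR 6024 CPM and 3362 CPM. All 3 number 1 libraries were above all 3 number 2 libraries, and 50.9% of the sum was left in number 2 of MKN45, 61.9% in HER2R and 55.8% in CEAR. Between lines the highest sum was 1.12 times the lowest within number 1 and 1.26 times within number 2. As a share of all counts the 41 genes went from 0.636% to 0.330% in MKN45, from 0.669% to 0.408% in HER2R and from 0.630% to 0.344% in CEAR. The libraries are bulk RNA, so fewer cells in G2 and mitosis and less of these RNAs per cell cannot be told apart.

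In a model with a term per line, 39 of the 41 genes were lower in number 2 and none was higher at an edgeR adjusted p under 0.05, where 7.34% of all tested genes were lower and 9.33% higher. CDK1 and UBE2C were the genes that did not pass, and 40 of the 41 had an unadjusted p under 0.05. These 41 were chosen with earlier results of these data known and share the same libraries, so they are not independent observations. The median log2 fold change of the 41 was -0.78, which leaves 58.2% of the level, and that of all tested genes was 0.02. In 14 of the 41 genes the fitted fall was 2-fold or more, and in 6, PIF1, CENPE, CENPF, ASPM, KIF20A and MKI67, the level fell at least 2-fold in each line. Lower in number 2 in 3 of 3 lines were 39 of the 41, against 25.3% of tested genes, and in 34 of the 41 every number 1 library was above every number 2 library, against 6.78%. The 7 with overlap were CDK1, CDC25B, NEK2, CENPA, UBE2C, PTTG1 and NUSAP1. Leaving out 1 library at a time gave 34 to 39 genes called. CDC25B lost the call whichever library was left out, and AURKB and NUSAP1 lost it without either library of MKN45 or CEAR.

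**Figure D1:**
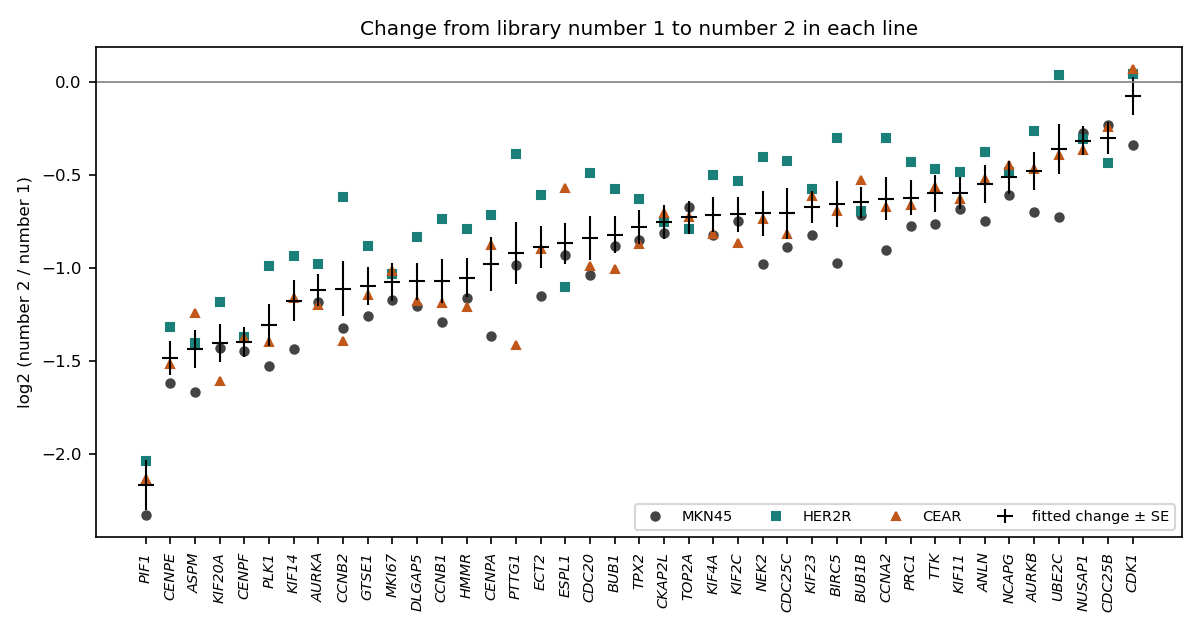
The log2 ratio of number 2 over number 1 in each line for the 41 genes, ordered by the fitted change, with the fitted value and its SE in black. PIF1 stands lowest at -2.16 and CDK1 highest at -0.08, and points above 0 occur only for CDK1 in HER2R and CEAR and for UBE2C in HER2R.

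The 6 genes of the entry switch had a median log2 change of -0.67, and 5 of them fell. CDK1 (chromosome 10, 60778331 to 60794852, plus strand in GENCODE 29, GRCh38), the kinase that starts mitosis, stood at 147, 156 and 130.1 CPM in the number 1 libraries of MKN45, HER2R and CEAR and at 116, 161 and 136 CPM in the number 2 libraries. It was lower in number 2 of MKN45 and slightly higher in number 2 of the resistant lines, and its libraries overlapped (log2 fold change -0.08 ± 0.10 SE, edgeR adjusted p = 0.636). CCNB1 (chromosome 5, 69167010 to 69178245, plus strand) encodes cyclin B1, the partner that makes CDK1 active at the onset of mitosis. CCNB1 stood at 344, 272 and 222 CPM in the number 1 libraries of MKN45, HER2R and CEAR and at 140.4, 163 and 97.7 CPM in the number 2 libraries. Every number 1 library was higher than every number 2 library, and the fitted fall was 2.1-fold (log2 fold change -1.07 ± 0.12 SE, edgeR adjusted p = 0.00178). The second B-type cyclin, CCNB2, fell by 1.11 on the log2 scale (edgeR adjusted p = 0.00371), and cyclin A2, CCNA2, which acts from S phase to early mitosis, by 0.63 (adjusted p = 0.0113). Of the phosphatases that activate CDK1, CDC25C changed by -0.71 (adjusted p = 0.0132) and CDC25B by -0.30 (adjusted p = 0.0478), close to the threshold. CDC25C overlaps FAM53C on the opposite strand, which had 62.8 CPM to its 14.4 CPM, and whether the counting used strand is not given in the sources used here.

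All 7 mitotic kinases fell, with a median of -0.71. PLK1 (chromosome 16, 23677656 to 23690367, plus strand), the polo-like kinase that acts at centrosomes, kinetochores and the midbody, stood at 278, 152 and 223 CPM in the number 1 libraries of MKN45, HER2R and CEAR and at 96.6, 76.6 and 84.4 CPM in the number 2 libraries. The number 1 libraries of MKN45 and CEAR were the highest, and no number 2 library reached the lowest number 1 library. It fell 2.47-fold (log2 fold change -1.31 ± 0.11 SE, edgeR adjusted p = 0.00089). PLK1 overlaps ERN2 on the opposite strand, which had 66.2 CPM to its 152 CPM. AURKA (chromosome 20, 56369389 to 56392337, minus strand), the Aurora kinase of the spindle poles, was at 137, 90.2 and 124 CPM in number 1 and 60.2, 45.8 and 54.2 CPM in number 2, with the lines here and below in the order MKN45, HER2R and CEAR. It was highest in MKN45 and lowest in HER2R in both numbers, without overlap between the numbers, and fell 2.17-fold (log2 fold change -1.12 ± 0.09 SE, edgeR adjusted p = 0.000476). AURKB, the Aurora kinase of centromeres and the midzone, fell less, by 0.48 on the log2 scale (adjusted p = 0.0187). The spindle checkpoint kinases BUB1 and TTK and the checkpoint protein BUB1B changed by -0.82, -0.60 and -0.65, and NEK2, which separates centrosomes, by -0.71. Their adjusted p-values were 0.00252, 0.00769, 0.00321 and 0.00836.

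The 4 centromere and kinetochore genes had the lowest median of the 7 roles, -1.19, and all fell. CENPF (chromosome 1, 214603195 to 214664588, plus strand), a large protein of the outer kinetochore that accumulates in G2, stood at 237, 392 and 252 CPM in the number 1 libraries of MKN45, HER2R and CEAR and at 86.8, 152 and 97.1 CPM in the number 2 libraries. HER2R was highest within each number, while its number 2 library was still below the lowest number 1 library. The fall was 2.63-fold (log2 fold change -1.40 ± 0.08 SE, edgeR adjusted p = 0.000257), nearly the same in the 3 lines, at log2 ratios of -1.45, -1.37 and -1.38. CENPE (chromosome 4, 103105806 to 103198409, minus strand) is the kinesin that carries chromosomes to the spindle equator, and it stood at 142, 172 and 137 CPM in the number 1 libraries of MKN45, HER2R and CEAR and at 46.4, 68.9 and 48 CPM in the number 2 libraries. No number 2 library came near a number 1 library, and CENPE fell 2.8-fold (log2 fold change -1.48 ± 0.09 SE, edgeR adjusted p = 0.000257). CENPA, the histone H3 variant that marks centromeres, changed by -0.98 (adjusted p = 0.00527). It overlaps SLC35F6 on the same strand, which had 51.3 CPM to its 18.2 CPM. KIF2C, a kinesin that takes microtubules apart at centromeres, changed by -0.71 (adjusted p = 0.00325).

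Of the 4 genes of the anaphase promoting complex and separase, 3 fell. CDC20 (chromosome 1, 43358955 to 43363203, plus strand), the activator that lets the complex destroy securin and cyclin B, had the highest mean level of the 4 and stood at 177, 217 and 165 CPM in the number 1 libraries of MKN45, HER2R and CEAR and at 86.3, 154 and 83 CPM in the number 2 libraries. HER2R was highest in both numbers, and its number 2 library came close to the number 1 library of CEAR without reaching it. CDC20 changed by a log2 fold change of -0.84 ± 0.12 SE (edgeR adjusted p = 0.00421). PTTG1, securin, changed by -0.92 (adjusted p = 0.0105) and ESPL1, the separase that cuts cohesin, by -0.87 (adjusted p = 0.00301). The PTTG1 copies PTTG2 and PTTG3P were at 0 to 0.0177 CPM. UBE2C, the ubiquitin conjugating enzyme of the complex, stood at 128, 107 and 124 CPM in number 1 and 77.5, 109 and 93.9 CPM in number 2. It was lower in number 2 of MKN45 and CEAR and about level in HER2R, and it did not pass the test (log2 fold change -0.36 ± 0.13 SE, edgeR adjusted p = 0.0993).

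**Figure D2:**
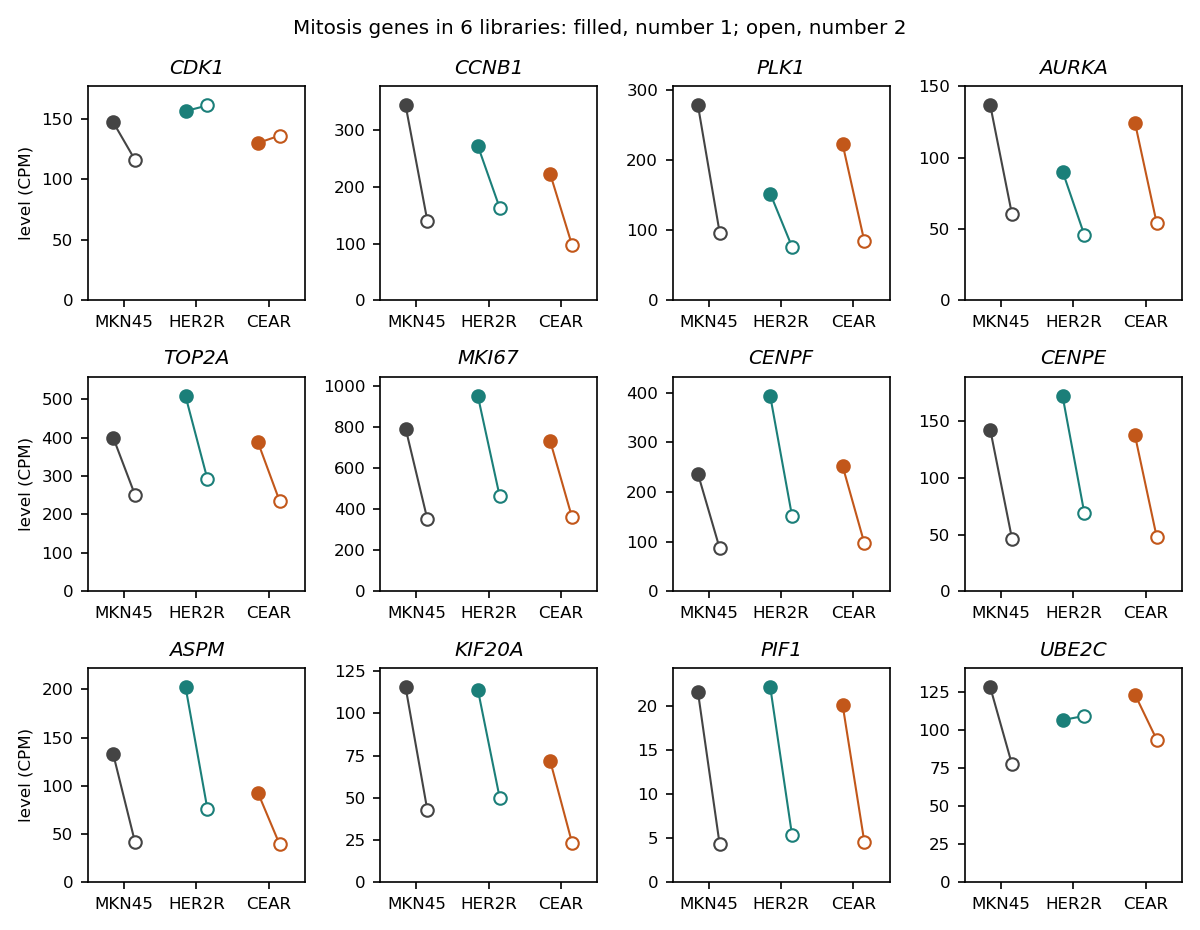
Levels in CPM of 12 of the genes in the 6 libraries, with filled points for number 1, open points for number 2 and a line joining the libraries of a cell line. PIF1 goes from 20.1 to 22.1 CPM in number 1 to 4.3 to 5.38 CPM in number 2, while CDK1 stays between 116 and 161 CPM.

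All 8 genes of spindle motors and spindle proteins fell, with a median of -0.92. ASPM (chromosome 1, 197084128 to 197146694, minus strand), which gathers microtubule ends at spindle poles, stood at 133, 202 and 92.8 CPM in the number 1 libraries of MKN45, HER2R and CEAR and at 41.8, 76.5 and 39.3 CPM in the number 2 libraries. The HER2R library was the highest of each number, and the fall was 2.7-fold (log2 fold change -1.44 ± 0.10 SE, edgeR adjusted p = 0.000329). GTSE1 (chromosome 22, 46296741 to 46330810, plus strand), a microtubule-binding protein of G2 and mitosis that restrains KIF2C, was at 62.9, 53.8 and 60.2 CPM in number 1 and 26.2, 29.2 and 27.2 CPM in number 2. The lines lay close together within each number, and GTSE1 fell 2.14-fold (log2 fold change -1.10 ± 0.10 SE, edgeR adjusted p = 0.00116). DLGAP5 (chromosome 14, 55148112 to 55191678, minus strand), which stabilises the fibres between spindle and kinetochores, was at 68, 83.1 and 72.5 CPM in number 1 and 29.5, 46.6 and 32 CPM in number 2. Its numbers did not overlap either, and it fell 2.1-fold (log2 fold change -1.07 ± 0.10 SE, edgeR adjusted p = 0.00121). The receptor and spindle protein HMMR changed by -1.05, TPX2, which activates AURKA on microtubules, by -0.78, and CKAP2L, a spindle-associated protein, by -0.75. Smaller falls were those of KIF11, the kinesin that pushes spindle poles apart, at -0.60, and of NUSAP1, which bundles microtubules near chromosomes, at -0.32. The adjusted p-values of these 5 genes lay between 0.00133 and 0.0292.

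The 8 genes of the midzone and of cytokinesis all fell, with a median of -0.69. KIF20A (chromosome 5, 138178719 to 138187715, plus strand), a kinesin of the central spindle, stood at 115, 114 and 71.6 CPM in the number 1 libraries of MKN45, HER2R and CEAR and at 42.7, 50.1 and 23.5 CPM in the number 2 libraries. CEAR was the lowest line within each number, and its number 1 library was still above the 3 number 2 libraries. KIF20A fell 2.65-fold (log2 fold change -1.40 ± 0.10 SE, edgeR adjusted p = 0.000346). It overlaps BRD8 and CDC23 on the opposite strand, which had 55.3 and 37.9 CPM to its 69.5 CPM. KIF14 (chromosome 1, 200551497 to 200620734, minus strand), a kinesin that recruits citron kinase to the midbody, was at 68.6, 98.2 and 78.7 CPM in number 1 and 25.4, 51.4 and 35.1 CPM in number 2. HER2R was highest in both numbers, and the gene fell 2.26-fold (log2 fold change -1.17 ± 0.11 SE, edgeR adjusted p = 0.00116). The other 6 fell less. ECT2, the exchange factor that activates RhoA at the cleavage furrow, changed by -0.89, and the midzone kinesins KIF4A and KIF23 by -0.71 and -0.67. BIRC5, survivin, which belongs to the Aurora B complex, changed by -0.66, PRC1, which cross-links midzone microtubules, by -0.62, and ANLN, the furrow scaffold anillin, by -0.55. The adjusted p-values of these 6 ran from 0.00321 to 0.0118. KIF4B, a near copy of KIF4A, was at 0.180 to 0.385 CPM.

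The 4 genes of chromosome structure fell as well, with a median of -0.90. MKI67 (chromosome 10, 128096659 to 128126385, minus strand), the Ki-67 protein that coats mitotic chromosomes and is used as a marker of dividing cells, was the most abundant of the 41 in CPM and stood at 793, 949 and 730.0 CPM in the number 1 libraries of MKN45, HER2R and CEAR and at 352, 463 and 361 CPM in the number 2 libraries. Every number 1 library was far above every number 2 library, and the fall was 2.11-fold (log2 fold change -1.07 ± 0.10 SE, edgeR adjusted p = 0.00125). TOP2A (chromosome 17, 40388516 to 40417950, minus strand), the topoisomerase that untangles sister DNA, was at 399, 507 and 388 CPM in number 1 and 251, 293 and 235 CPM in number 2. HER2R was highest in both numbers, and TOP2A fell 1.66-fold (log2 fold change -0.73 ± 0.09 SE, edgeR adjusted p = 0.00256). PIF1 (chromosome 15, 64815632 to 64825668, minus strand), a DNA helicase of telomeres and replication forks, had the largest fall of the 41 and was at 21.6, 22.1 and 20.1 CPM in number 1 and 4.3, 5.38 and 4.58 CPM in number 2. The 3 lines were almost level within each number, and the fall was 4.48-fold (log2 fold change -2.16 ± 0.14 SE, edgeR adjusted p = 0.000257). NCAPG, a subunit of the condensin I complex, changed by -0.51 (adjusted p = 0.0081). Per kilobase of exon the 41 genes spanned 2.79 CPM per kb in PIF1 to 82.8 in UBE2C, with a median of 18.5, as means over the 6 libraries. Across the 41 genes, which lie on 16 chromosomes and share the libraries, the fall was little related to the level (Spearman's rho of the log2 change with mean CPM 0.07, with exon length -0.25).

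By line, the median log2 ratio of number 2 over number 1 was -0.93 in MKN45, -0.61 in HER2R and -0.86 in CEAR. Lower in number 2 were 41 genes in MKN45, 39 in HER2R and 40 in CEAR. The order of the genes by their fall was alike between lines, with Spearman's rho over the 41 genes of 0.71 for HER2R and MKN45, 0.89 for CEAR and MKN45 and 0.71 for CEAR and HER2R. Each line has 1 library of each number, so whether the fall differed between lines was not tested.

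Other genes of the cell cycle were read from lists of related genes. Of 67 further mitosis genes 39 passed from number 1 to number 2, all of them lower, and the median was -0.43. Of all tested genes 7.34% were lower. The kinetochore scaffold CASC5 (KNL1) was at 87.2, 92.6 and 86.4 CPM in number 1 and 34.9, 37 and 34.9 CPM in number 2, and it fell 2.49-fold in the fit (log2 fold change -1.32 ± 0.08 SE, edgeR adjusted p = 0.000257). PSRC1, a microtubule-binding protein, changed by -0.99, DEPDC1 by -1.16 and cyclin F, CCNF, by -0.85, with adjusted p-values of 0.00118, 0.00126 and 0.00126. Of 19 core subunits of the anaphase promoting complex and phosphatases of mitotic exit, 5 passed, all lower, beside 7.34% of tested genes. CDC27 changed by -0.51, ANAPC1 by -0.51, the activator FZR1 by -0.50 and ANAPC15 by -0.50, and the median of the list was -0.03.

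Among 23 transcription factors of cell cycle genes, 1 fell and 2 rose, where 7.34% of tested genes fell and 9.33% rose. FOXM1, the forkhead factor that activates G2 and mitosis genes, was at 318, 189 and 185 CPM in number 1 and 168, 121 and 99.4 CPM in number 2. The number 1 libraries were all above the number 2 libraries, and FOXM1 fell 1.77-fold (log2 fold change -0.82 ± 0.09 SE, edgeR adjusted p = 0.00186). MYBL2, the B-MYB partner of the MuvB complex, stood at 520.3, 283 and 483 CPM in number 1 and 339, 262 and 444 CPM in number 2, with numbers that overlapped (log2 fold change -0.28 ± 0.12 SE, edgeR adjusted p = 0.148). E2F1, an activator of genes of S phase entry, was at 57.1, 43.4 and 70.4 CPM in number 1 and 65.4, 53.2 and 106 CPM in number 2 and rose in the fit (log2 fold change 0.36 ± 0.10 SE, edgeR adjusted p = 0.0411). E2F2 rose by 0.36 on the log2 scale as well (adjusted p = 0.0422).

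Among 51 genes of S phase entry and replication 3 rose and 4 fell, with a median of -0.04, where 9.33% of tested genes rose and 7.34% fell. The E-type cyclins CCNE2 and CCNE1, which drive entry into S phase, rose by 0.70 and 0.43 on the log2 scale (adjusted p = 0.00698 and 0.0325), and the uracil DNA glycosylase UNG rose by 0.37 (adjusted p = 0.0358). CDK6, a G1 kinase, changed by -0.83, the DNA polymerase subunit POLE by -0.52, thymidine kinase TK1 by -0.44 and the replication helicase subunit GINS2 by -0.36, all 4 past the threshold. Of 14 tested inhibitors and checkpoint kinases, the antiproliferative gene BTG2 rose by 0.60 (adjusted p = 0.017) and the CDK phosphatase CDKN3 changed by -0.71 (adjusted p = 0.00922). The CDK inhibitors CDKN1A (p21) and CDKN1B (p27) and the CDK1-inhibiting kinase WEE1 did not pass, with log2 changes of 0.18, 0.05 and -0.19 and adjusted p-values of 0.3, 0.785 and 0.271.

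**Figure D3:**
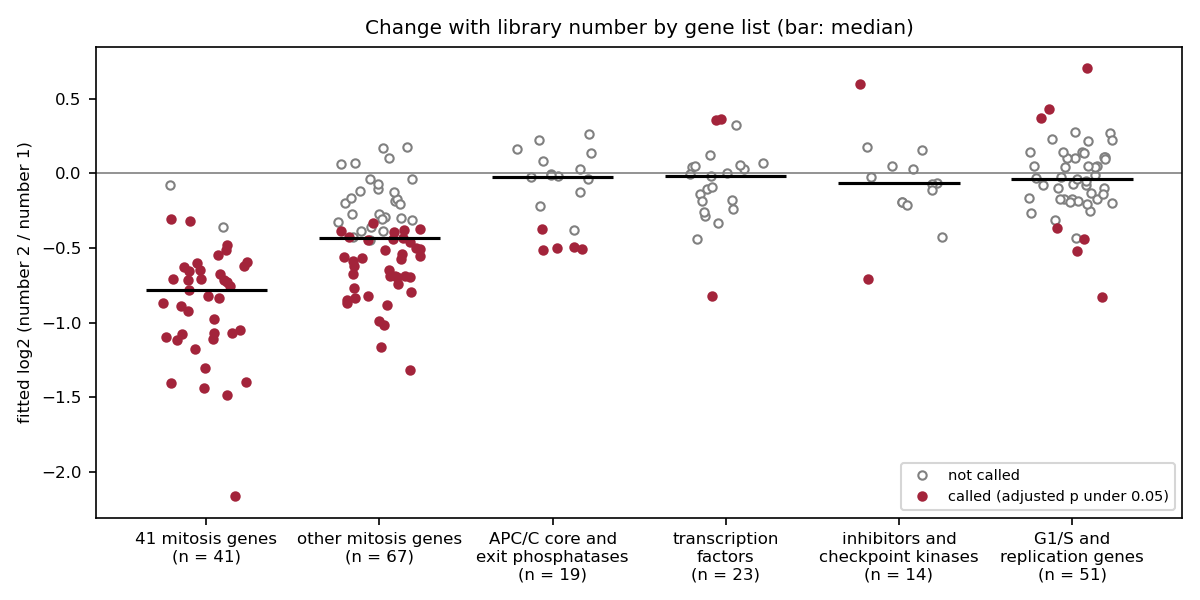
The fitted log2 change from number 1 to number 2 of each tested gene in 6 lists, filled where the adjusted p is under 0.05, with the median of each list as a bar. The bar of the 41 genes lies at -0.78 and that of 67 other mitosis genes at -0.43, while the other 4 lie between -0.07 and -0.02. All 6 lists were chosen with earlier results of these data known.

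Of 10 tested epithelial and gastric markers 4 rose from number 1 to number 2, where 9.33% of tested genes rose. They were TFF1, TFF2, MUC5AC and KRT19, and the median of the list was 0.28. The other 6 did not pass. Of these the claudin CLDN4 was at 225, 159 and 125 CPM in number 1 and 199, 145 and 74.1 CPM in number 2, lower in number 2 in each line (log2 fold change -0.35 ± 0.13 SE, edgeR adjusted p = 0.0942). CLDN18, a claudin of the stomach, was at 2.09, 2.83 and 46.9 CPM in number 1 and 2.59, 2.35 and 30.8 CPM in number 2, higher in MKN45 and lower in HER2R and CEAR (log2 fold change -0.30 ± 0.19 SE, edgeR adjusted p = 0.306). The summed level of the list was 8535 to 12045 CPM in number 1 and 10452 to 15728 CPM in number 2, most of it from the keratins KRT8 and KRT18, which did not pass. TFF1, a secreted trefoil peptide of gastric surface cells, was at 10.1, 7.24 and 5.16 CPM in number 1 and 173, 66.7 and 32.1 CPM in number 2 and rose in all 3 lines (log2 fold change 3.37 ± 0.24 SE, edgeR adjusted p = 0.000346). The mucin MUC5AC of the same cells was at 4.11, 0.153 and 99.6 CPM in number 1 and 82.1, 3.32 and 366 CPM in number 2, with numbers that overlapped between lines, and rose within each line (log2 fold change 3.04 ± 0.45 SE, edgeR adjusted p = 0.00504). TFF2 rose by 3.34 on the log2 scale and the keratin KRT19 by 0.70. TFF2 was at 0.177, 0.0255 and 1.78 CPM in number 1 and 3.30, 0.714 and 14.6 CPM in number 2. In number 1 it was near the floor in MKN45 and HER2R, with 1 count in HER2R. CD68, a lysosomal protein also used as a macrophage marker, rose by 1.03 in the fit. It was at 4.87, 3.18 and 2.65 CPM in number 1 and 15, 3.24 and 5.6 CPM in number 2, about level in HER2R. COL1A1, the one tested fibroblast marker, changed by -1.04 from 1.68 to 7.44 CPM in number 1 to 0.591 to 3.55 CPM in number 2. A group of 5 abundant noncoding RNAs took 11.2% to 12.0% of counts in number 1 and 11.1% to 14.0% in number 2. Leaving these RNAs out gave 39 of 41 lower again, with a median of -0.78. The part of the gastric and other markers in the fall of the mitosis genes was not tested.

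None of the 41 genes passed between lines when the library number was left out of the model. In the model with a term per line and no term for the number, 0 of 41 were called in HER2R against MKN45, where 9.74% of tested genes were. None was called in CEAR against MKN45 either, where 6.19% were, nor in HER2R against CEAR, where 14.1% were. None of the 41 had an unadjusted p under 0.05 in edgeR in these 3 comparisons, and DESeq2 and limma-voom called 0 as well. The lowest adjusted p of the 41 was 0.234, 0.330 and 0.204 in that order. The medians were 0.12, -0.06 and 0.18, beside all-gene medians of -0.02, -0.000193 and 0. The median SE of a log2 fold change was 0.39 in each, and the spread within a line includes here the difference between the numbers. The middle median was 0.02 when libraries were scaled by size alone, the other side of 0.

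In the fit with a replicate block, which takes out the number, the median SE was 0.12 and some of the 41 passed. In HER2R against MKN45 13 of the 41 were called, 11 higher and 2 lower, which is 31.7% where 33.7% of tested genes were called. In CEAR against MKN45 5 were called, all lower in CEAR, or 12.2% beside 25.8%. In HER2R against CEAR 20 were called, 18 higher in HER2R and 2 lower, or 48.8% beside 38.2%. The first share was near that of all genes, the second below and the third above, and these differences were not tested. Of the 14958 tested genes 2419 were higher and 2621 lower in HER2R than in MKN45. In CEAR against MKN45 1795 were higher and 2066 lower, and in HER2R against CEAR 2942 were higher and 2775 lower.

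The 4 centromere and kinetochore genes chosen here were all higher in HER2R than in MKN45 with the block. CENPF, whose levels are given above, was 1.7-fold higher (log2 fold change 0.77 ± 0.10 SE, edgeR adjusted p = 0.000957), and the HER2R library was the higher in both numbers. CENPA was at 21.2, 32.8 and 17.5 CPM in number 1 and 8.21, 20 and 9.5 CPM in number 2, highest in HER2R within each number. It was higher than in MKN45 by 0.93 on the log2 scale, KIF2C by 0.58 and CENPE by 0.42, with adjusted p-values of 0.00529, 0.00563 and 0.0194. Centromere and kinetochore genes among the further mitosis genes went both ways, and were not tested as a group. In number 1 of MKN45 and HER2R, CENPH was at 30 and 15.5 CPM and CENPK at 26.6 and 17.9 CPM. In number 2 they were at 19.5 and 9.92 CPM and at 25.8 and 18.1 CPM. CENPO and NDC80 were higher in HER2R than in MKN45 in both numbers. CKAP2L, the spindle-associated protein, was at 32.9, 54.6 and 36.2 CPM in number 1 and 18.7, 32.4 and 22.2 CPM in number 2, again highest in HER2R. Among spindle genes ASPM was higher by 0.73, CKAP2L by 0.76, DLGAP5 by 0.47 and NUSAP1 by 0.39. The remaining genes higher in HER2R were KIF14 (0.76), CDC20 (0.57) and BUB1B (0.34). PLK1 and AURKA went the other way, with PLK1 1.52-fold lower in HER2R (log2 fold change -0.60 ± 0.14 SE, edgeR adjusted p = 0.0115) and AURKA 1.41-fold lower (log2 fold change -0.50 ± 0.11 SE, edgeR adjusted p = 0.00839). Both were lower in HER2R within number 1 and within number 2. In the fit without the block, leaving out MKN45 replicate 1 turned PLK1 to 0.25 and AURKA to 0.18, and leaving out HER2R replicate 1 turned CENPF to -0.0949. These refits pair unequal numbers, so they cannot check the values with the block.

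The 5 genes lower in CEAR than in MKN45 with the block were a kinesin of the midzone, securin, a spindle protein, a cyclin and a phosphatase. KIF20A was 1.7-fold lower (log2 fold change -0.77 ± 0.12 SE, edgeR adjusted p = 0.00311), with the CEAR library the lower in both numbers. In the fit without the block, leaving out MKN45 replicate 1, which pairs unequal numbers, turned it to 0.16. PTTG1, which encodes securin, was at 90.8, 84.5 and 63 CPM in number 1 and 45.9, 64.5 and 23.7 CPM in number 2, lowest in CEAR within each number. It changed by -0.71, HMMR by -0.59, cyclin B1, CCNB1, by -0.58 and CDC25B by -0.36, with adjusted p-values of 0.0338, 0.0118, 0.0192 and 0.0412. HER2R against CEAR shares its libraries with the 2 comparisons above. There ASPM was 2.06-fold higher in HER2R (log2 fold change 1.04 ± 0.12 SE, edgeR adjusted p = 0.000582) and KIF20A 1.83-fold higher (log2 fold change 0.87 ± 0.12 SE, edgeR adjusted p = 0.00128). CENPA, PTTG1, CDC20, CENPF, NEK2, CDC25C, CKAP2L, KIF2C, CCNB1, KIF14, CENPE, CDC25B, DLGAP5, MKI67, TOP2A and NUSAP1 were higher by 0.33 to 0.99 on the log2 scale. AURKA and KIF23 were lower, at -0.35 and -0.38.

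Read within each number, where every line has 1 library and no test is possible, the differences between lines were not the same in the 2 numbers. HER2R over MKN45 had a median log2 ratio of 0.03 in number 1, with 23 of 41 genes higher, and of 0.35 in number 2, with 35 of 41 higher. CEAR over MKN45 had medians of -0.09 and 0.01, with 12 and 23 genes higher. HER2R over CEAR had medians of 0.21 and 0.32, with 27 and 32 genes higher. The all-gene medians lay between -0.02 and 0.01.

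**Figure D4:**
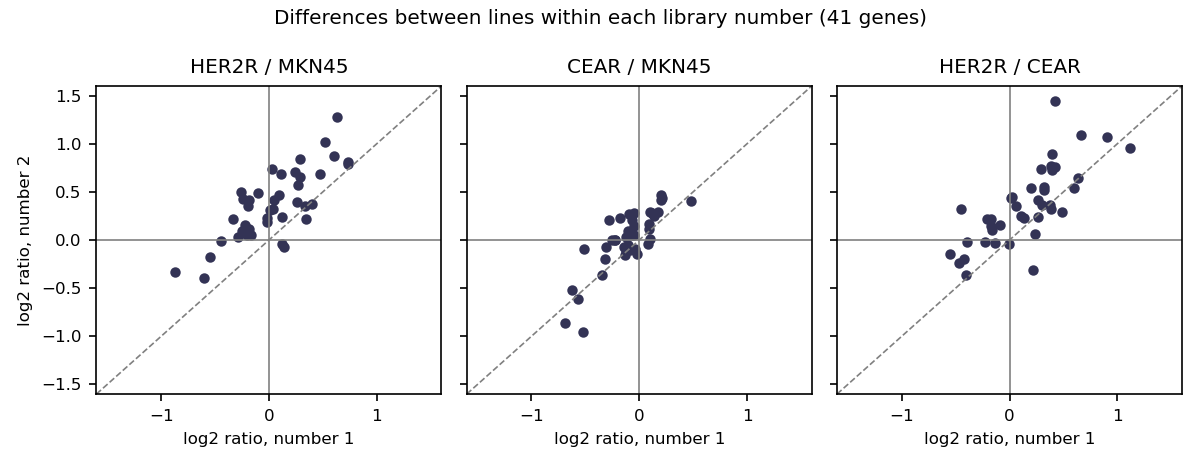
Log2 ratios between lines for the 41 genes, number 1 on the horizontal axis and number 2 on the vertical axis, with the dashed line marking equal ratios. In HER2R over MKN45 most genes lie above the dashed line, with medians of 0.03 in number 1 and 0.35 in number 2.

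All 6 of the regulators FOXM1, MYBL2, E2F1, CDKN1A, CDKN1B and WEE1 passed between at least 1 pair of lines with the block, and CDKN1A, WEE1 and E2F1 also without it. With the block, 33.7% of tested genes were called in HER2R against MKN45, 25.8% in CEAR against MKN45 and 38.2% in HER2R against CEAR. Without the block these shares were 9.74%, 6.19% and 14.1%. CDKN1A, a CDK inhibitor induced by p53, was at 184, 162 and 55.7 CPM in number 1 and 237, 148 and 68.4 CPM in number 2. The CEAR libraries were the lowest, without overlap, and CDKN1A was 3.39-fold lower in CEAR than in MKN45 (log2 fold change -1.76 ± 0.18 SE, edgeR adjusted p = 0.00639). It was higher in HER2R than in CEAR by 1.32 on the log2 scale (edgeR adjusted p = 0.0111). In HER2R against MKN45 it passed with the block alone (-0.43, adjusted p = 0.037, 0.155 without). WEE1, the kinase that holds CDK1 inactive, was at 29, 42.6 and 57.9 CPM in number 1 and 24.4, 31.9 and 61.2 CPM in number 2. It was 2.23-fold higher in CEAR than in MKN45 (log2 fold change 1.16 ± 0.19 SE, edgeR adjusted p = 0.0209). With the block alone WEE1 was higher in HER2R than in MKN45 (0.47, adjusted p = 0.0298, 0.149 without) and lower in HER2R than in CEAR (-0.69, adjusted p = 0.00544, 0.0568 without). FOXM1 was highest in MKN45 within each number and did not pass without the block (adjusted p = 0.351 in HER2R and 0.325 in CEAR). With the block it changed by -0.61 and -0.77 (adjusted p = 0.00442 and 0.00195). MYBL2 was lower in HER2R than in MKN45 with the block (-0.63, adjusted p = 0.0133), and without it the adjusted p was 0.106. It was lower in HER2R than in CEAR with the block as well (-0.76, adjusted p = 0.00513, 0.0638 without). E2F1 was lower in HER2R than in CEAR (log2 fold change -0.87 ± 0.22 SE, edgeR adjusted p = 0.0495). In CEAR against MKN45 it was higher with the block alone (0.50, adjusted p = 0.0176, 0.220 without). CDKN1B passed in HER2R against MKN45 with the block alone (0.51, adjusted p = 0.0203, 0.0904 without).

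In the other lists the number of genes past the threshold between lines depended on the block. With it, 13 of the 67 further mitosis genes were higher and 11 lower in HER2R than in MKN45, where 33.7% of tested genes were called. In CEAR against MKN45 10 were higher and 7 lower, where 25.8% were, and in HER2R against CEAR 8 were higher and 11 lower, where 38.2% were. Without the block, 1 of the 67 further mitosis genes was called in HER2R against MKN45, the tubulin-binding protein STMN1 (0.77). In CEAR against MKN45 2 were called, STMN1 (1.08) and the centromere protein CENPN (1.17), and in HER2R against CEAR 3, CENPN, ZWILCH and KIF22, all lower in HER2R. Of all tested genes 9.74%, 6.19% and 14.1% were called in these comparisons. Of the 51 G1 and S phase genes 11 were lower and 1 higher in HER2R than in CEAR without the block, with a median of -0.33. In that comparison 14.1% of tested genes were called. With the block 23 were lower and 6 higher in that comparison, 10 lower and 8 higher in HER2R than in MKN45, and 2 lower and 14 higher in CEAR than in MKN45. The shares of all tested genes called with the block were 38.2%, 33.7% and 25.8% in that order. The genes named next were called without the block. In HER2R against CEAR the licensing factor CDT1 was lower by 1.26 on the log2 scale and GINS2 by 1.30. The clamp loader subunit RFC4 was lower by 0.92 and the helicase subunit MCM5 by 0.79, while the D-type cyclin CCND2 was higher by 0.82. Against MKN45, CCND2 was lower in both resistant lines, at -1.15 in HER2R and -1.97 in CEAR (edgeR adjusted p = 0.00762 and 0.00241). Among the 23 transcription factors, 4 were lower and 1 higher in HER2R than in MKN45 without the block, beside 9.74% of tested genes. They were the retinoblastoma family members RB1 (-0.96) and RBL2 (-0.70), their partners E2F4 (-0.93) and TFDP1 (-1.13), and E2F6 (0.80). With the block 8 were lower and 3 higher, where 33.7% of tested genes were called.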

How the data were processed

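Total RNA of the 3 lines was sequenced from stranded, ribosomal RNA depleted libraries, per the labels' protocols. The authors deposited raw read counts by gene symbol, whole numbers in all 6 libraries, with totals of 39657353 to 57964246. The submitters' processing notes name GRCh38 and limma. The aligner, counter and annotation were not given in the sources used here.

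Genes were tested by the quasi-likelihood test of edgeR 4.0.16 (R 4.3.3). Of 29744 symbols filterByExpr kept 14958, libraries were scaled by TMM, and all 6 entered 1 model of the line (3 residual and 3.51 prior degrees of freedom). Library number 2 was tested against number 1 in a model with line terms (2 residual and 6.34 prior). Benjamini-Hochberg adjustment ran across the tested genes, and an adjusted p under 0.05 made a call. The SE was taken as the absolute log2 fold change divided by the root of F. CPM levels use scaled totals of tested genes. Per-kilobase levels use the summed exons of GENCODE 29. Promoters are from RefSeq.

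Replicate numbers come from the labels. Deviations of number 2 from number 1 over all tested genes had correlations of 0.378 (MKN45 and HER2R), 0.545 (MKN45 and CEAR) and 0.355 (HER2R and CEAR). The number was therefore taken as pairing the libraries, and the fit with it as a replicate block is given beside calls it changes among the 41 genes, the 6 regulators always named, and the further mitosis, G1 and S phase lists. Values in every library are given for called genes, at most 10 per comparison by smallest p, for CDK1, CCNB1, PLK1, AURKA, TOP2A and MKI67, and for the most abundant gene of a role without one. Of other genes FOXM1, MYBL2, E2F1, CDKN1A, CDKN1B and WEE1 are always named, with up to 4 called genes per list and direction. The 41 genes and the lists were chosen with earlier results of these data known. Alternatives were DESeq2 1.42.0, limma-voom (limma 3.58.1), the legacy quasi-likelihood method, RLE size factors, scaling by library size, dropping the filter, requiring 1 CPM, leaving out 5 noncoding RNAs (RNA45S5, RN7SL1, RN7SL2, RN7SK and RMRP), fitting the compared lines alone and leaving out each library. The fits were tested on simulated data, in which the share of false genes among those called was above the nominal level.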

Additional observations from a re-analysis of the deposited data

Results flagged for a closer look

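CDK1, the kinase of the entry switch, moved one way in MKN45 and the other way in the resistant lines. Its log2 ratio of number 2 over number 1 was -0.341 for MKN45, 0.0418 for HER2R and 0.0666 for CEAR. Each ratio rests on 1 library of each number, and the difference between lines was not tested.

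UBE2C, the ubiquitin conjugating enzyme of the anaphase promoting complex, had a log2 ratio of -0.725 for MKN45, 0.0354 for HER2R and -0.396 for CEAR. It was lower in number 2 of MKN45 and CEAR and slightly higher in number 2 of HER2R. Here too a line has 1 library of each number, and the difference between lines was not tested.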

How the results depend on the processing

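From number 1 to number 2, 38 or 39 of the 41 genes were lower under each other scaling, filter, tool and dispersion method, and 34 to 39 without each library, lowest without CEAR replicate 1. Called in every alternative were 34 genes, while CDC25B, CDC25C, AURKB, NUSAP1 and ANLN lost the call in at least 1, and the cause was not tested. CDC25B lost it without any single library, with no filter, with the 1 CPM filter and with the legacy method. Medians ran from -0.87 to -0.73.

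Between lines 0 of 41 were called under every alternative but the replicate block, which called 13 in HER2R against MKN45, 5 in CEAR against MKN45 and 20 in HER2R against CEAR. Leaving out a library without the block pairs unequal numbers, and moved the medians from -0.25 to 0.64, from -0.58 to 0.53 and from -0.17 to 0.66 in that order. The signs of single genes turned in the same refits. In HER2R against MKN45 the log2 fold change ranged from -1.30 to 0.25 in PLK1, -1.11 to 0.18 in AURKA, -0.0529 to 0.75 in BUB1B, -0.46 to 1.38 in CENPE, -0.0949 to 1.65 in CENPF, -0.0754 to 1.14 in DLGAP5 and -0.19 to 1.74 in ASPM. In CEAR against MKN45 it ranged from -1.31 to 0.20 in CCNB1, -1.31 to 0.12 in HMMR and -1.75 to 0.16 in KIF20A. In HER2R against CEAR it ranged from -0.0360 to 1.15 in CCNB1, -0.97 to 0.33 in AURKA, -0.44 to 1.32 in CENPE, -0.21 to 1.49 in CENPF, -0.17 to 1.02 in DLGAP5, -0.15 to 1.09 in KIF14, -0.0932 to 0.77 in TOP2A and -0.24 to 0.97 in MKI67. With 1 library left, a line is assumed to vary like the others. The lowest level of the 41 genes was 4.3 CPM, where 1 count was worth 0.0177 to 0.0255 CPM.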
